A study of Mus musculus with 9 samples.

Results

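The genes described here are 10 mouse genes of bile acid synthesis, bile acid transport and the bile acid receptor FXR, of 43346 genes listed in the count table, and they were chosen by name. They are Cyp7a1, Cyp8b1, Cyp27a1 and Cyp7b1 (synthesis), Baat (conjugation), Slc10a1, Abcb11 and Slc51b (transport), and Nr1h4 and Nr0b2 (nuclear receptors). The study examined liver regeneration after partial hepatectomy in mice given vehicle or NSC-87877 (NSC), a small molecule inhibitor of the phosphatase SHP2, and measured whole liver RNA by sequencing. The paper states that NSC inhibits the phosphatase SHP1 as well. All 9 libraries came from C57/BL6 mice aged 12 weeks, male per the study's methods, in 3 groups of 3 livers each.

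Baseline livers were tissue taken at 0 h from vehicle-treated mice, which the methods describe as the lobes removed at surgery. The vehicle 40 h and NSC 40 h livers were remnants collected 40 h after 70% hepatectomy, so they came from other lobes than the baseline tissue. NSC was given at 7.5 mg/kg, 2 times a day, from 12 h before surgery, and vehicle was saline on the same schedule. The gallbladder was removed in the same operation, per the methods, so every 40 h liver came from a mouse without one. No NSC-treated liver from 0 h was analysed here, and both 40 h groups are set against the same 3 baseline livers.

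Hepatocytes make bile acids from cholesterol, mainly through the cholesterol 7-alpha-hydroxylase CYP7A1, and an alternative route starts with the sterol 27-hydroxylase CYP27A1. Bile acids taken up from portal blood activate FXR, a nuclear receptor that induces the canalicular export pump and the repressor SHP (Nr0b2), which lowers transcription of the synthesis genes. In the intestine FXR induces the hormone FGF15, which signals to hepatocytes through FGFR4 and beta-Klotho, and SHP2 is known as a phosphatase downstream of such receptors.

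Counts assigned to genes ranged from 31187349 to 33943842 in the baseline libraries, from 27956396 to 42887589 in the vehicle 40 h libraries and from 23997363 to 30201051 in the NSC libraries. Levels are given as CPM, counts relative to a library total adjusted by the trimmed mean of M values, at which 3 counts stand for 0.07 to 0.125 CPM. NSC liver 1 stood apart from the other NSC livers: on the second principal component, which held 11.9% of the variance, it lay at -24.66, among the vehicle 40 h livers (-24.46 to -10.16), whereas NSC livers 2 and 3 lay at 26.96 and 43.47. Differences were tested with edgeR's quasi-likelihood test over 15024 genes, and a gene is said to have risen or fallen where the Benjamini-Hochberg adjusted p was under 0.05. Baseline liver 2 stood apart from the other baseline livers in clock and acute phase genes, with Arntl at 1.65 CPM beside 33.8 and 35.5 and Saa3 at 106.7 CPM beside 8.25 and 9.27, and results against baseline are also given without it. The labels do not say whether a baseline specimen and a 40 h remnant came from the same mouse.

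Of the 10 genes, 5 fell and 0 rose in the vehicle 40 h livers, beside 11.0% of all tested genes that fell and 12.7% that rose. The genes that fell were Cyp8b1, Cyp27a1, Baat, Slc10a1 and Nr1h4, and the median log2 fold change over the 10 was -1.08, beside 0.01 over all tested genes. In the NSC livers the same 5 genes fell and Slc51b rose, beside 16.5% of all genes that fell and 18.2% that rose, with a median log2 fold change of -0.88. Of these, only Cyp8b1 in vehicle livers and Cyp8b1, Cyp27a1 and Slc51b in NSC livers also passed a log2 fold change of 1.5, beside 7.22% and 8.13% of all genes. No member differed between NSC and vehicle livers at 40 h by this test. Against baseline, 6 members were lower and 1 higher without overlap of livers with vehicle, and 5 and 1 with NSC. Such separation was common, as it held for 46.3% of all tested genes with vehicle and 47.1% with NSC.

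**Figure D1:**
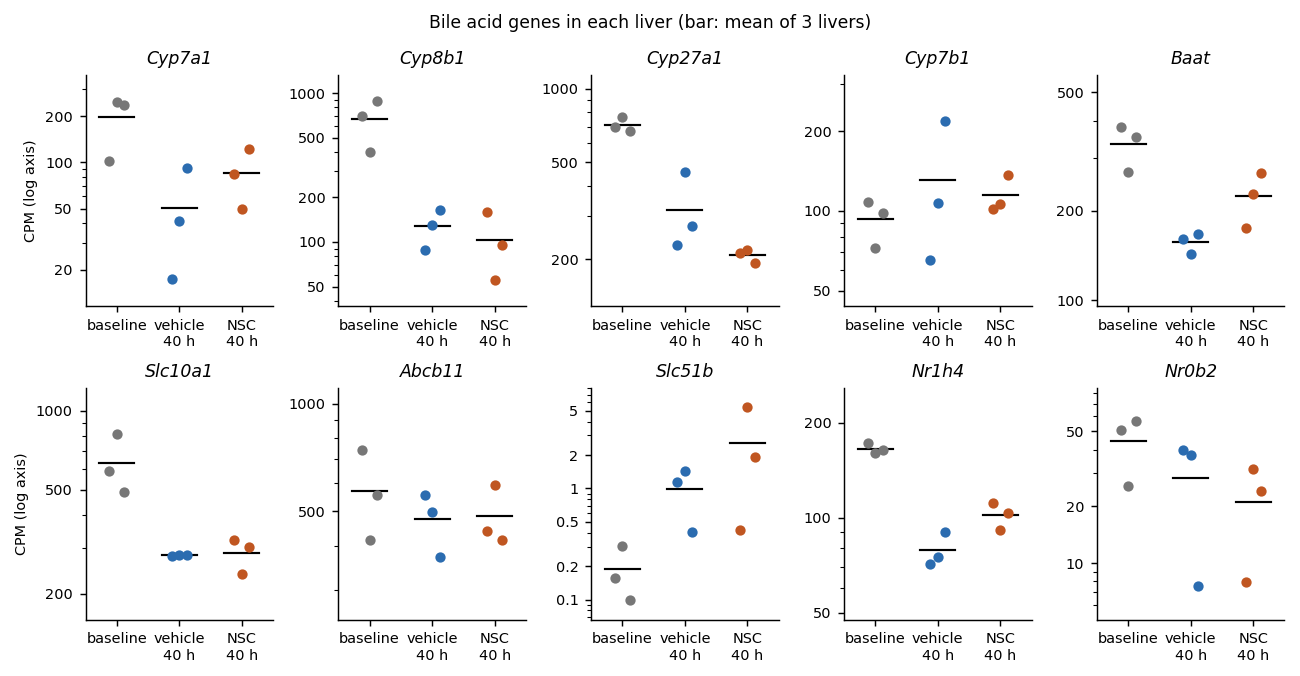
CPM of the 10 bile acid genes in each of the 9 livers on a log axis, with 3 livers a group and a bar at the group mean. The baseline livers lay above every 40 h liver for Cyp8b1, Cyp27a1, Baat, Slc10a1 and Nr1h4 and below every 40 h liver for Slc51b. The groups overlapped for Abcb11, Cyp7b1 and Nr0b2. Of all tested genes, 46.3% did not overlap with baseline in the vehicle livers and 47.1% in the NSC livers.

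Cyp8b1 showed the largest fall. It encodes the sterol 12-alpha-hydroxylase that directs synthesis toward cholic acid. Its CPM was 702.8, 403.5 and 887.7 in the baseline livers, 87.5, 130.3 and 163.8 in the vehicle 40 h livers, and 159.0, 55.3 and 95.8 in the NSC livers. The lowest baseline liver exceeded the highest 40 h liver of either group, and the 2 groups at 40 h overlapped. The log2 fold change was -2.39 (SE 0.43, adjusted p = 0.00453) in vehicle livers, a 5.23-fold lower level, and -2.68 (SE 0.44, adjusted p = 0.00185) in NSC livers, a 6.43-fold lower level.

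Cyp27a1, the mitochondrial sterol 27-hydroxylase, fell in both 40 h groups. It was at 698.7, 762.6 and 670.1 CPM at baseline and at 228.7, 455.5 and 273.7 CPM in vehicle livers. The NSC livers were at 211.8, 217.3 and 191.9 CPM, each below the lowest vehicle liver. The fall was 2.23-fold in vehicle livers (log2 fold change -1.15, SE 0.23, adjusted p = 0.00402) and 3.43-fold in NSC livers (-1.78, SE 0.23, adjusted p = 0.000257).

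Cyp7a1, the rate-limiting enzyme of the classical route, varied widely between livers. Its CPM was 102.5, 248.5 and 237.5 at baseline, 17.3, 41.5 and 92.2 in vehicle livers and 84.6, 50.1 and 121.6 in NSC livers. Every vehicle 40 h liver lay below every baseline liver, but the highest came close to the lowest baseline liver, and 1 NSC liver exceeded it. The log2 fold change was -1.96 in vehicle livers (SE 0.66, adjusted p = 0.0687) and -1.20 in NSC livers (SE 0.64, adjusted p = 0.189), and neither passed the test. The vehicle difference did pass with DESeq2 (adjusted p = 0.0125), with edgeR's exact test (adjusted p = 0.0135) and without vehicle 40 h liver 3, the liver with the most Cyp7a1 of its group (log2 fold change -2.73, adjusted p = 0.0237).

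Cyp7b1, the oxysterol 7-alpha-hydroxylase of the alternative route, did not follow the other synthesis genes. It was at 108.5, 72.3 and 98.0 CPM at baseline, at 65.5, 107.5 and 217.9 CPM in vehicle livers and at 101.9, 106.2 and 137.0 CPM in NSC livers. The groups overlapped, and the log2 fold changes were 0.49 (SE 0.38, adjusted p = 0.385) and 0.31 (SE 0.38, adjusted p = 0.558). The vehicle value rested on liver 3, without which it was -0.10.

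Baat, which joins bile acids to taurine or glycine, fell in both 40 h groups. It was at 382.9, 269.1 and 352.9 CPM at baseline, 161.2, 143.2 and 167.4 in vehicle livers and 174.9, 228.7 and 267.7 in NSC livers. The 3 groups did not overlap. The fall was 2.13-fold with vehicle (log2 fold change -1.09, SE 0.19, adjusted p = 0.0022) and 1.5-fold with NSC (-0.58, SE 0.19, adjusted p = 0.0336), and the NSC call was lost without baseline liver 1 (adjusted p = 0.124), baseline liver 3 (0.108), NSC liver 1 (0.0904) or NSC liver 2 (0.0808).

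Among the transporters, Slc10a1 fell and Abcb11 passed no test. Slc10a1 encodes NTCP, the sodium-dependent carrier that takes conjugated bile acids up from blood at the basolateral membrane. It was at 588.2, 817.6 and 489.0 CPM at baseline, at 279.2, 282.2 and 280.7 CPM in vehicle livers and at 320.9, 238.4 and 302.3 CPM in NSC livers. No 40 h liver reached the baseline range, and the vehicle livers lay inside the range of the NSC livers. The fall was 2.25-fold with vehicle (log2 fold change -1.17, SE 0.20, adjusted p = 0.00191) and 2.20-fold with NSC (-1.14, SE 0.20, adjusted p = 0.00149).

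Abcb11 encodes BSEP, the pump that exports bile acids into the canaliculus. It was at 740.1, 413.2 and 556.0 CPM at baseline, 553.4, 497.7 and 371.2 in vehicle livers and 440.7, 592.7 and 415.0 in NSC livers. The ranges of all 3 groups overlapped. The log2 fold change was -0.27 with vehicle (SE 0.24, 95% interval -0.78 to 0.25, adjusted p = 0.453) and -0.24 with NSC (95% interval -0.76 to 0.28, adjusted p = 0.464), intervals that leave room for a change of either sign.

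Slc51b, the beta subunit of the basolateral bile acid exporter OST, rose in NSC livers, from a level near the limit of detection. It had 5, 10 and 3 counts in the baseline libraries, 46, 55 and 11 in the vehicle 40 h libraries and 14, 158 and 49 in the NSC libraries. In CPM these were 0.16, 0.31 and 0.10 at baseline, 1.15, 1.43 and 0.41 with vehicle, and 0.42, 5.37 and 1.92 with NSC. Every 40 h liver exceeded every baseline liver, and the 40 h groups overlapped. The rise passed the test in NSC livers (log2 fold change 3.73, SE 0.93, adjusted p = 0.0122), although not without baseline liver 1 (adjusted p = 0.0508) or baseline liver 3 (0.0546). In vehicle livers the log2 fold change was 2.39 (SE 0.94, adjusted p = 0.0924), and it passed with DESeq2 (adjusted p = 0.0119) and with edgeR's exact test (adjusted p = 0.0351).

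The partner subunit Slc51a, named after its values were seen, had 0 counts in all 9 libraries, which allows up to 3 counts in each. Slc51b overlaps Rasl12 on the opposite strand, and Rasl12 itself had 0 to 7 counts a library. The strand setting of the counting is not given in the sources used here.

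The start of Abcb11 carries the sequence pattern that FXR with its partner RXR is known to bind, an inverted repeat of the half-site AGGTCA spaced by 1 base. RefSeq promoter windows on GRCm38.p6 were found for 7 of the 10 genes (not for Cyp7a1, Cyp7b1 and Baat), and the 250 bases before each start were searched on both strands. The starts were those of RefSeq, and other annotations can differ. In GENCODE M21, another gene annotation, Slc51b starts at chr9:65422955, inside its window. The Nr1h4 window (chr10:89506659-89506908, minus strand) lies inside the gene, which reaches 89533585. With 1 mismatch allowed, the repeat was in the Abcb11 window, first base at -63 from the start, in no other of the 7 genes, and in 0.0791% of all 32851 windows. With 2 mismatches allowed, which 0.959% of windows hold, a further match lay at -94 in Abcb11. The windows of Abcb11 (chr2:69342617-69342866, minus strand) and Slc51b (chr9:65422774-65423023, minus strand) are given to set the strong match beside the gene that rose. Capitals mark the inverted repeats in Abcb11 and, in Slc51b, a single exact half-site at -203. Exact half-sites also lay in Abcb11 (at -56, inside the repeat), in Nr1h4 (at -214) and in a window of Slc10a1 (at -87). An exact half-site, on either strand, was in 14.0% of all windows.
Abcb11: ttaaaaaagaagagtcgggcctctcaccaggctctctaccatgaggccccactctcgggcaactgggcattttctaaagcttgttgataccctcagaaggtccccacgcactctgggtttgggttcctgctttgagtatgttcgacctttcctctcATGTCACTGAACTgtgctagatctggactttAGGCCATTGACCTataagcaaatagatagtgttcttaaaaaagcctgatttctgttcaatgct
Slc51b: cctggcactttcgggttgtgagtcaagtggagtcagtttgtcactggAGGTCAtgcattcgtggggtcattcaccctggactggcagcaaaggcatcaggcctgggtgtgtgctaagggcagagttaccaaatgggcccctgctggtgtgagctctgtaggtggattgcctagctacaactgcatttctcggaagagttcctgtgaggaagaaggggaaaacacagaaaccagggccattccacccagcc
A match of letters is a description of the window and not evidence of binding. The gene with the closest match, Abcb11, passed no test. Slc51b, the gene that rose in NSC livers, had no match to the repeat within 2 mismatches in this window. Bases further upstream were not searched, and the part of these patterns in the levels of the genes was not tested.

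Nr1h4, which encodes FXR, fell with the smallest error of the 10 genes. It was at 171.9, 160.0 and 164.0 CPM at baseline, 71.4, 75.4 and 90.3 in vehicle livers and 111.3, 91.6 and 103.5 in NSC livers. The baseline, vehicle and NSC ranges did not overlap, and NSC livers lay between the others. The fall was 2.09-fold with vehicle (log2 fold change -1.06, SE 0.15, adjusted p = 0.000522) and 1.62-fold with NSC (-0.69, SE 0.15, adjusted p = 0.00362).

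Nr0b2, which encodes the repressor SHP and is itself an FXR target, had no difference that passed the test. It was at 50.9, 25.5 and 56.6 CPM at baseline, 39.9, 37.6 and 7.53 in vehicle livers and 7.92, 31.6 and 24.0 in NSC livers. The groups overlapped, and 1 liver in each 40 h group lay far below its companions. The log2 fold change was -0.64 with vehicle (SE 0.71, adjusted p = 0.566) and -1.07 with NSC (SE 0.72, adjusted p = 0.292).

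The Nr0b2 window (chr4:133553126-133553375, plus strand) held no match to the inverted repeat within 2 mismatches, and bases further upstream were not searched. It held 2 copies of TCAAGG, the core bound by LRH-1 (Nr5a2), a receptor that activates Nr0b2 and that SHP represses. The copies, in capitals, begin at -68 and -35. None of the other 6 genes' windows held this core on either strand, and 12.5% of all windows did.
Nr0b2: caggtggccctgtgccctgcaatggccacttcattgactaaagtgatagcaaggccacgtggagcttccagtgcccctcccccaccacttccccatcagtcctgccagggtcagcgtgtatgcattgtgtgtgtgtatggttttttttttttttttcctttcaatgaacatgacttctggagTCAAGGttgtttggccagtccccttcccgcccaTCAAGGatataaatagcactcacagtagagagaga
The data hold no measure of LRH-1 binding.

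The levels of Cyp7a1 and of its repressor were read together within livers, a reading chosen after the values were seen. In the vehicle 40 h group the liver with the least Nr0b2 had the most Cyp7a1, and the ratio of Cyp7a1 to Nr0b2 in FPKM (counts relative to the library total and to gene length) was 0.118, 0.3 and 3.32. At baseline the liver with the least Nr0b2 also had the most Cyp7a1, with ratios of 0.547, 2.65 and 1.14. That was baseline liver 2, which stood apart in clock and acute phase genes. Baseline liver 3 had the most Nr0b2 (56.6 CPM) and nearly as much Cyp7a1 (237.5 CPM, beside 248.5 in liver 2). In the NSC group the ratios were 2.9, 0.43 and 1.37, and the liver with the least Nr0b2 was not the liver with the most Cyp7a1. With 3 livers a group this is a description only.

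**Figure D2:**
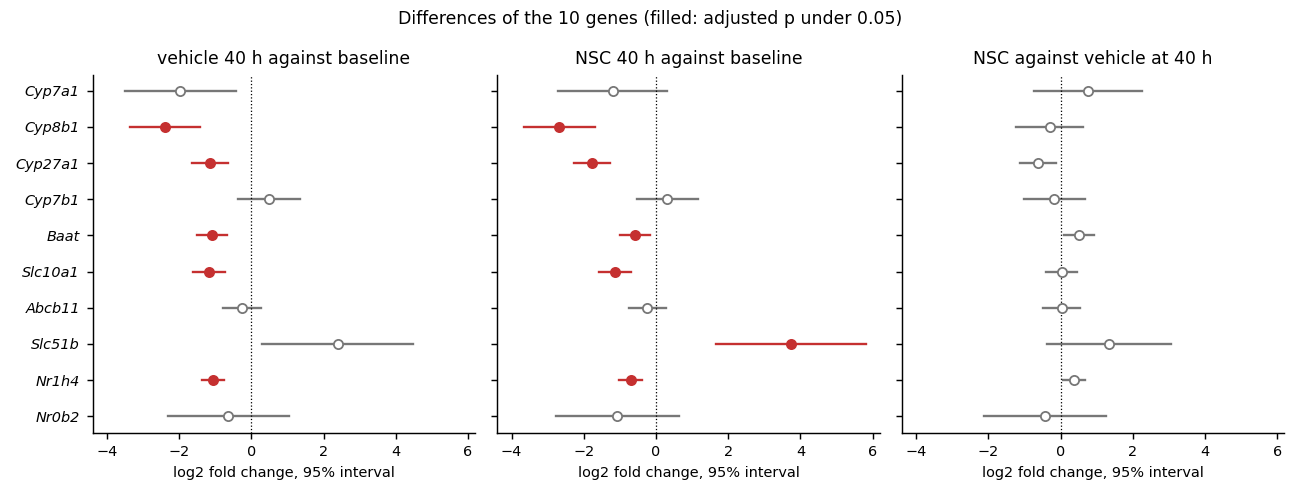
Log2 fold change of each gene with its 95% interval in the 3 comparisons, filled where the adjusted p of edgeR's quasi-likelihood test was under 0.05. 5 points are filled with vehicle and 6 with NSC against baseline, none is filled for NSC against vehicle, and the Cyp27a1, Baat and Nr1h4 intervals in that panel exclude 0.

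The direct comparison of NSC with vehicle at 40 h asks whether the inhibitor changed these genes in the regenerating liver. No member was called by edgeR's quasi-likelihood test, by DESeq2 or by edgeR's exact test, beside 0.0399% of all tested genes called by the quasi-likelihood test. At an unadjusted p under 0.05 there were 3 of 10 members, beside 19.5% of all genes, and the same 3 were the members whose NSC and vehicle livers did not overlap, beside 22.5% of all genes. Cyp27a1 was lower with NSC by a log2 fold change of -0.63 (95% interval -1.12 to -0.13, adjusted p = 0.173). Baat was higher by 0.51 (95% interval 0.09 to 0.93, adjusted p = 0.185). Nr1h4 was higher by 0.37 (95% interval 0.05 to 0.69, adjusted p = 0.198).

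The intervals of the other 7 members included 0 and differed greatly in width. Slc10a1 (-0.40 to 0.47) and Abcb11 (-0.49 to 0.54) had the narrowest, so that a change of 2-fold in either direction lay outside them. Cyp8b1 (-1.23 to 0.63) and Cyp7b1 (-1.03 to 0.67) left room for a 2-fold lower level with NSC. Cyp7a1 (-0.73 to 2.26), Slc51b (-0.39 to 3.07) and Nr0b2 (-2.11 to 1.26) were not determined to within 4-fold in at least 1 direction.

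Without NSC liver 1, which stood with the vehicle livers, Baat was called in the direct comparison (log2 fold change 0.66, adjusted p = 0.0493), beside 6.46% of all genes called. Slc51b was then at 1.84 (adjusted p = 0.0603), Cyp27a1 at -0.65 (adjusted p = 0.139) and Nr1h4 at 0.30 (adjusted p = 0.249). In the comparison with baseline, leaving out this liver ended the Baat call (adjusted p = 0.0904), and the Slc51b rise in NSC livers was then 4.25 on the log2 scale (adjusted p = 0.000454).

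**Figure D3:**
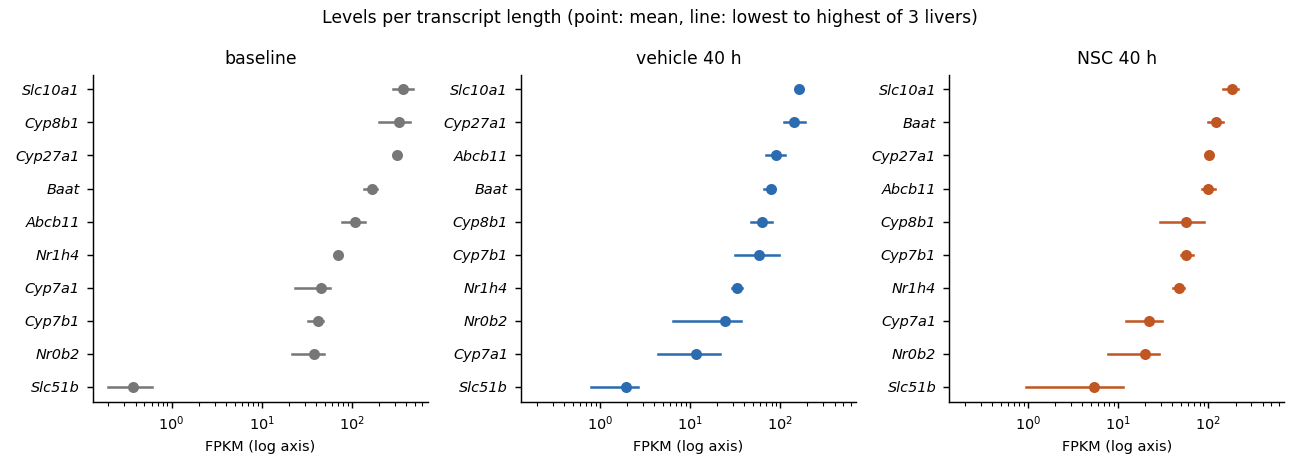
FPKM of the 10 genes in order of their group mean, on a log axis, with a line from the lowest to the highest of 3 livers. Slc10a1 is first and Slc51b last in each group, and Cyp8b1 moves from the second place at baseline to the fifth at 40 h in both groups.

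Levels can be compared between genes only per length, in FPKM. At baseline Slc10a1 had a mean of 363.9 FPKM, Cyp8b1 329.2 and Cyp27a1 315.5, and these neighbours overlapped between livers. Then followed Baat at 166.5, Abcb11 at 106.8, Nr1h4 at 69.3, Cyp7a1 at 45.4, Cyp7b1 at 41.4, Nr0b2 at 37.8 and Slc51b at 0.37. The ranges of neighbours in that order did not overlap for Cyp27a1 and Baat, Abcb11 and Nr1h4, Nr1h4 and Cyp7a1, and Nr0b2 and Slc51b. Baat and Abcb11 overlapped in range, although Baat was higher in each of the 3 livers.

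In vehicle 40 h livers the mean FPKM ran from Slc10a1 (163.3), Cyp27a1 (140.5) and Abcb11 (90.1) through Baat (79.2), Cyp8b1 (62.9), Cyp7b1 (58.0), Nr1h4 (33.4) and Nr0b2 (24.5) to Cyp7a1 (11.6) and Slc51b (1.97). Among these neighbours the ranges of Cyp7a1 and Slc51b did not overlap, and Baat was above Cyp8b1 in each liver with overlapping ranges. In NSC livers the order was Slc10a1 (183.1), Baat (122.2), Cyp27a1 (101.3), Abcb11 (99.4), Cyp8b1 (57.1), Cyp7b1 (56.5), Nr1h4 (47.3), Cyp7a1 (21.9), Nr0b2 (19.6) and Slc51b (5.45). There the ranges of Nr1h4 and Cyp7a1 did not overlap, and Slc10a1 was above Baat, Abcb11 above Cyp8b1 and Nr0b2 above Slc51b in each liver with overlapping ranges. Abcb11, which stood below Baat at baseline by mean, stood above it in vehicle livers, where their ranges overlapped.

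The genes differed in how far livers of a group spread. In vehicle livers the highest Cyp7a1 level was 5.32 times the lowest and the highest Nr0b2 level 5.3 times the lowest, whereas Slc10a1 had a mean of 280.7 CPM with an SD of 1.49. In NSC livers Slc51b spread 12.8-fold, Nr0b2 3.99-fold and Cyp8b1 2.88-fold. Nr1h4 had an SD of 6.05 CPM at a baseline mean of 165.3.

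Likeness of pattern was measured as the root mean square difference of log2 CPM, centred on the mean of the 9 livers, against 12699 genes with a mean of at least 1 CPM. Cyp27a1 had the closest companions, Mlxipl (0.147), Ecm1 (0.177) and Gm27331 (0.188). For Cyp8b1 they were Mir22 (0.402), Akap5 (0.469) and Chrnb2 (0.478), for Cyp7a1 Nrep (0.513), Gm11967 (0.562) and Mup-ps13 (0.588), a pseudogene of the Mup family that can share reads with its relatives, and for Nr0b2 Abca2 (0.513), Zfp775 (0.522) and Steap3 (0.524). For Slc51b they were Bora (0.491), Usp43 (0.531) and Cdkn2c (0.56). Within the 10 genes the closest pair was Baat with Nr1h4 (0.234), followed by Slc10a1 with Nr1h4 (0.28).

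**Figure D4:**
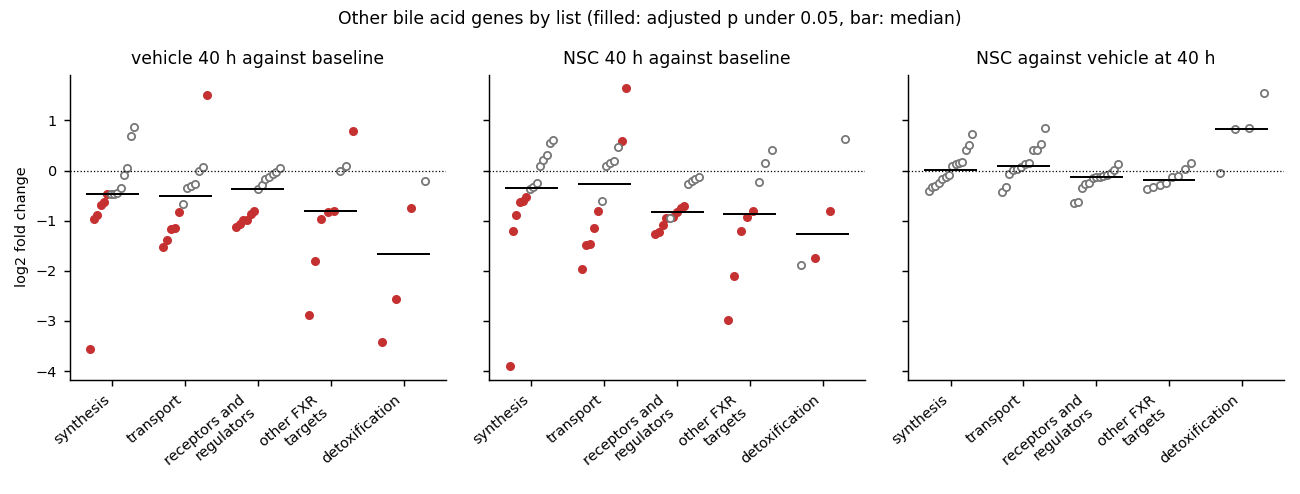
Log2 fold change of the other bile acid genes that were tested, by list, in the 3 comparisons, filled where the adjusted p was under 0.05, with a bar at the list median. Most filled genes lie below 0 in both comparisons with baseline, the highest filled point in the transport list is Slc10a2, and none is filled for NSC against vehicle.

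The other genes of the pathway were read from lists of 53 genes, of which 47 were tested. In vehicle livers 22 fell and 2 rose, with a median log2 fold change of -0.47, beside 11.0% of all tested genes that fell and 12.7% that rose. In NSC livers 23 fell and 2 rose, with a median of -0.61, beside 16.5% and 18.2% of all genes. The same shares stand beside the counts of the single lists. Without baseline liver 2, 21 pathway genes were called with vehicle (20 lower) and 22 with NSC (21 lower). In that fit 8.79% of all tested genes fell and 10.1% rose with vehicle, and 13.8% fell and 14.8% rose with NSC. Those shares stand beside every count given without that liver. Between NSC and vehicle at 40 h 0 of 47 were called by the quasi-likelihood test and 7 had an unadjusted p under 0.05, beside 19.5% of all genes. DESeq2 called 3 of them (Abcd3, Akr1d1 and Abcg2, all higher with NSC), beside 4.44% of all genes, and edgeR's exact test 2 (Akr1d1 and Abcg2), beside 2.64%.

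Of 14 other synthesis genes tested, 6 fell and 0 rose in each 40 h group. Slc27a5, the bile acid CoA ligase that precedes BAAT, fell from a mean of 1229 CPM to 630.3 with vehicle (log2 fold change -0.96, adjusted p = 0.00559) and 532.7 with NSC (-1.21, adjusted p = 0.00113). Cyp46a1, the cholesterol 24-hydroxylase, fell from 2.79 CPM to 0.23 (-3.57, adjusted p = 0.00182) and 0.19 (-3.90, adjusted p = 0.000979). In vehicle livers Abcd3, a peroxisomal transporter of bile acid intermediates, fell (-0.88, adjusted p = 0.00298), as did Akr1d1, the steroid 5-beta-reductase (-0.64, adjusted p = 0.017), and in NSC livers they were at -0.37 (adjusted p = 0.101) and 0.10 (adjusted p = 0.679). In NSC livers Hsd3b7, the next enzyme of the classical route after CYP7A1, fell (-0.89, adjusted p = 0.00533), and in vehicle livers it was at -0.47 (adjusted p = 0.106). The peroxisomal thioesterase Acot8 fell in both (-0.47 with vehicle, adjusted p = 0.0336, and -0.61 with NSC, adjusted p = 0.00713).

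Akr1d1 was at 129.4, 139.1 and 109.1 CPM in vehicle livers and 180.2, 198.8 and 249.7 CPM in NSC livers, and these did not overlap. The baseline livers, at 214.6, 191.5 and 181.2 CPM, lay within the NSC range.

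Of 12 other transporters of bile acids and bile lipids tested, 5 fell in each 40 h group, and 1 rose with vehicle and 2 with NSC. With baseline liver 2 left out, 5 fell and 1 rose in each 40 h group. Slc10a2, the apical sodium-dependent bile acid carrier that in liver is known from cholangiocytes, rose from 18.5, 21.9 and 18.4 CPM at baseline to 42.9, 58.5 and 66.2 with vehicle (log2 fold change 1.51, adjusted p = 0.000413) and to 65.8, 71.0 and 45.9 with NSC (1.64, adjusted p = 0.000181). The 40 h livers all exceeded the baseline livers. Over the same comparisons 5 of 8 tested cholangiocyte markers rose with vehicle and 3 with NSC, including Krt19, Krt7 and Spp1 in both, and the summed level of the 9 listed markers went from 51.7 to 57.4 CPM at baseline to 87.5 to 129.5 with vehicle and 91.3 to 133.3 with NSC. Without baseline liver 2, 5 markers rose with vehicle and 1 rose and 1 fell with NSC. Their part in the Slc10a2 and Slc51b values was not tested.

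The exporters of the canalicular and basolateral membranes that fell included Abcc2, also called MRP2 (log2 fold change -0.83 with vehicle, adjusted p = 0.00861, and -0.80 with NSC, adjusted p = 0.00691). Abcc3 fell from a mean of 358.6 CPM to 162.3 and 128.4 (-1.14, adjusted p = 0.00296, and -1.48, adjusted p = 0.000481). Abcc4 fell to 2.08 and 1.97 CPM from 5.47 (-1.39, adjusted p = 0.00292, and -1.47, adjusted p = 0.00152). The sterol transporter genes Abcg5 (-1.16 with vehicle, adjusted p = 0.0225, and -1.16 with NSC, adjusted p = 0.0165) and Abcg8 (-1.53, adjusted p = 0.0241, and -1.96, adjusted p = 0.00633) fell in both groups as well. Their baseline means were raised by baseline liver 2, with Abcg5 at 112.0 CPM beside 57.7 and 52.9 and Abcg8 at 145.2 beside 67.8 and 69.5. Abcg2 rose with NSC from 70.5 to 105.6 CPM (0.58, adjusted p = 0.0272) and was at -0.27 with vehicle (adjusted p = 0.315).

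Of 13 other receptors and regulators tested, 6 fell with vehicle and 8 with NSC, and 0 rose. Klb, which encodes beta-Klotho, the co-receptor for FGF15, fell from 39.4 to 19.8 CPM with vehicle (log2 fold change -0.99, adjusted p = 0.00203) and to 18.4 with NSC (-1.09, adjusted p = 0.00079). Mafg, an FXR-induced repressor of synthesis genes, fell (-0.80, adjusted p = 0.00515, and -0.93, adjusted p = 0.00162), as did Nr1i2, the xenobiotic receptor PXR (-0.87, adjusted p = 0.00614, and -0.95, adjusted p = 0.00252). Ppargc1a, a coactivator, fell too (-1.12, adjusted p = 0.00686, and -1.27, adjusted p = 0.00254). Fgf15, named after its values were seen, had 0 counts in every library.

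Of 8 other FXR targets tested, 5 fell in each 40 h group and 1 rose with vehicle. Pltp, which transfers phospholipid between lipoproteins, fell from 124.2 CPM to 16.9 (log2 fold change -2.88, adjusted p = 0.00194) and 15.7 (-2.98, adjusted p = 0.00111). Apoc2, a cofactor of lipoprotein lipase, rose with vehicle (0.78, adjusted p = 0.0218) and was at 0.41 with NSC (adjusted p = 0.162). The list also holds Mafg, Slc27a5 and Abcc2, whose values were given with the other lists.

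Of 4 detoxification genes tested, 3 fell with vehicle and 2 with NSC. Sult2a8, a bile acid sulfotransferase, fell from 431.2 CPM to 73.0 (log2 fold change -2.56, adjusted p = 0.00256) and 129.4 (-1.74, adjusted p = 0.00917). Ugt1a1, which glucuronidates bilirubin and shares exons with other Ugt1a genes, fell (-0.75, adjusted p = 0.00621, and -0.81, adjusted p = 0.00291). Cyp2b10, a target of the receptor CAR with close paralogs, fell with vehicle (-3.43, adjusted p = 0.0146) and was at -1.89 with NSC (adjusted p = 0.0695).

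Clock genes, acute phase genes and cell type markers were read beside the members, and the shares of all tested genes that fell or rose were those given for the members (11.0% and 12.7% with vehicle, 16.5% and 18.2% with NSC). For counts without baseline liver 2 the shares were 8.79% and 10.1% with vehicle, and 13.8% and 14.8% with NSC. Cyp7a1 is known to vary over the day, and 40 h after surgery is another time of day than 0 h. Of 17 clock genes tested, 5 fell with vehicle and 6 with NSC, including Cry2 (log2 fold change -1.62, adjusted p = 0.000869, and -1.76, adjusted p = 0.000371) and Nr1d1 (-2.45, adjusted p = 0.0325, and -2.57, adjusted p = 0.0205). Dbp, named after its values were seen, is a clock output factor known to act on Cyp7a1. It was at 81.0 CPM in baseline liver 2, at 0.41 and 1.29 CPM in the other baseline livers, and at 0.55 to 1.32 CPM at 40 h. Other clock genes of baseline liver 2 stood apart as well, named after their values were seen. Npas2 was at 0.061 CPM beside 8.02 and 8.51, Per3 at 66.6 beside 2.15 and 3.56, Ciart at 30.6 beside 1.93 and 0.66, and Tef at 260.6 beside 48.1 and 48.3. The 40 h livers held 3.36 to 8.38 CPM of Npas2, 1.62 to 4.82 of Per3, 0.18 to 0.86 of Ciart and 19.9 to 40.5 of Tef. Arntl was at 21.6 to 27.7 CPM in them. The Cyp7a1 level of baseline liver 2 (248.5 CPM) was close to that of baseline liver 3 (237.5 CPM). Without baseline liver 2, the same 5 members fell with vehicle, and the same 5 fell and Slc51b rose with NSC. Cyp7a1 was then at -1.76 (adjusted p = 0.167) and -0.99 (adjusted p = 0.374) on the log2 scale, and of 16 clock genes tested 4 fell with vehicle and 5 fell and 1 rose with NSC. The part of the clock in the other values was not tested.

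Of 19 acute phase genes 13 rose in each 40 h group, or 16 and 14 without baseline liver 2, in which Lcn2 was at 196.7 CPM beside 20.3 and 27.1 in the other baseline livers, and their summed level went from 35850 to 52520 CPM at baseline to 88270 to 132300 with vehicle and 80040 to 122800 with NSC. Hepatocyte markers were present in every liver, at a summed 141000 to 146300 CPM at baseline, 125700 to 171500 with vehicle and 122800 to 132300 with NSC, so the livers hold the labelled tissue. Of 12 hepatocyte markers 3 fell and 1 rose with vehicle, and 6 fell and 1 rose with NSC, led by Tat and Hpd. With baseline liver 2 left out, 3 fell with vehicle and 5 with NSC, and 0 rose. In whole liver, fewer hepatocytes and less RNA of a gene per hepatocyte cannot be told apart. The part of the acute phase genes and of the hepatocyte markers in the members' falls was not tested.

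Of the markers of other cells, 0 in each list were called between NSC and vehicle at 40 h by the quasi-likelihood test. That stood beside 0.0399% of all tested genes. Only the macrophage sums did not overlap between those groups. Of single markers, 5 of 10 macrophage and 2 of 8 endothelial genes were higher with NSC without overlap. Lower without overlap were 5 of 8 stellate cell and 3 of 8 tested cholangiocyte genes, and 0 neutrophil or intestinal genes were apart. Of all genes 22.5% were apart in either direction. Macrophage markers summed to 201.5 to 279.6 CPM at baseline, 191.2 to 345.7 with vehicle and 350.6 to 572.6 with NSC, and 5 of 10 rose with NSC and 2 with vehicle. Stellate cell markers summed to 205.1 to 245.6, 405.4 to 572.9 and 252.2 to 461.3 CPM, and 5 of 8 rose with vehicle and 2 with NSC. Neutrophil markers, with 5 of 8 tested, rose for 1 gene with vehicle and 3 with NSC. Of 8 endothelial markers 2 fell with vehicle and 0 changed with NSC. Of 6 intestinal markers 2 were tested and 1, Lgals4, fell with vehicle, a call lost without baseline liver 2. Without that liver 1 macrophage marker was called with vehicle and 1 stellate cell marker with NSC. The part of these markers in the direct comparison was not tested.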

How the data were processed

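RNA of 9 livers was sequenced after poly-A selection with a stranded kit. Per the study's methods and the submitters' processing notes, the authors aligned paired reads with STAR 2.6.1 in the MAP-RSeq pipeline and counted them per gene with featureCounts of Subread 1.5.1. The notes name a human build, but the deposited table lists mouse genes: 42462 of 43346 IDs are in GENCODE M21 (GRCm38), 33460 at the same coordinates. The authors deposited raw counts and FPKM per gene beside each gene's Length, another column of the table. The deposited FPKM equal the counts scaled by total and by Length plus 1 base (largest relative difference 4.96e-10). FPKM served only to order levels between genes.

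The counts were fitted in edgeR 4.0.16 (R 4.3.3): genes kept by filterByExpr (15024), trimmed mean scaling, 1 quasi-likelihood model of the 3 groups over all 9 libraries, robust dispersion, Benjamini-Hochberg adjustment over all genes tested and a call at adjusted p under 0.05. The methods name edgeR on raw counts but not its model. Standard errors, 95% intervals and folds come from that fit. The p-values measure the spread between livers of a group. No count column of a sample was left unused. Code was tested on simulated data. CPM and log2 CPM (prior count 2) were computed from the counts, and principal components from log2 CPM.

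The alternatives were DESeq2 1.42.0, edgeR's exact test, other scaling, other filters, 2-group fits, a replicate block, a fold threshold and leaving out each library. All 10 members are named. From each pathway list and each comparison with baseline up to 4 called genes with the smallest adjusted p are named in each direction, along with the 3 genes nearest in pattern for the 5 members with the widest range. The members and the gene lists were chosen with earlier results of these data known. Sult2a8, Tf and Adgre1 were matched by gene ID. Promoter windows came from RefSeq (GRCm38.p6). Counting limits cover counting error only.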

Additional observations from a re-analysis of the deposited data

How the results depend on the processing

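Of 169 values of single members under the alternatives in each comparison, 158 kept their direction and call with vehicle against baseline, 161 with NSC against baseline and 162 with NSC against vehicle. With a log2 fold change over 1.5 also required, 1 member (Cyp8b1) passed with vehicle and 3 (Cyp8b1, Cyp27a1 and Slc51b) with NSC, and 7 and 6 other pathway genes passed. Leaving out each liver in turn gave 5 to 6 members with vehicle, 4 to 6 with NSC and 0 to 1 in the direct comparison, the 1 being Baat without NSC liver 1. For the other pathway genes the ranges were 18 to 26, 20 to 27 and 0 to 5, the 5 without NSC liver 1 (Akr1d1, Abcg2 and Cyp3a11 higher, Nr1i3 and Vldlr lower). In the direct comparison DESeq2 called 3 of these genes, edgeR's exact test 2, and a filter of at least 1 count 2, beside 0 as reported. Across all genes that comparison called 6, against 667 with DESeq2, 397 with the exact test, 221 with the filter of at least 1 count and 994 without NSC liver 1. The cause was not tested.

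Leaving out single livers also turned signs, in no case of a called value. Cyp7b1 with vehicle ranged from -0.10 (without vehicle 40 h liver 3) to 0.81. Between NSC and vehicle, Cyp8b1 ranged from -0.76 to 0.002 (without NSC liver 2), Cyp7b1 from -0.50 to 0.41 (without vehicle liver 3), Slc10a1 from -0.057 (without NSC liver 1, and -0.007 without NSC liver 3) to 0.15, and Abcb11 from -0.15 (without NSC liver 2, and -0.12 without vehicle liver 3) to 0.15. Baat against baseline in NSC livers was lost with library size scaling (adjusted p = 0.0982), which moved the median of all genes by 0.14 on the log2 scale, and with only the 2 groups fitted (adjusted p = 0.0622). Slc51b with vehicle passed with only the 2 groups fitted and without NSC liver 1 or 2, and the filter of at least 10 counts in every library removed it. With the replicate block 7 members were called with vehicle (Cyp7a1, adjusted p = 0.0329, and Slc51b, adjusted p = 0.0361, were added), 6 with NSC and 0 between them, and 24, 25 and 0 other pathway genes. Deviations of same-numbered livers correlated at -0.073 to 0.158, and not every liver correlated best with its own number. Whether same-numbered livers came from the same mouse is not given in the sources used here. Depth limits Slc51b, with 3 to 10 counts at baseline.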
